A study of Mus musculus with 24 samples.

Results

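The genes described here encode the inflammasomes and the machinery of pyroptosis. They are 10 genes, Nlrp3, Nlrc4, Naip2, Naip5, Aim2, Mefv, Pycard, Casp1, Casp4 and Gsdmd, chosen by symbol, and each was found among the 54658 gene symbols that both count tables hold. RNA was sequenced from 3 tissues of male C57BL/6 mice aged 7 to 12 weeks at the start, given intraperitoneal β-NMN (185 mg/kg/day), a precursor of NAD+, or the saline vehicle. Peritoneal cells came from sterile peritonitis induced with thioglycollate (TGC) and were all stimulated ex vivo for 6 h with E. coli, from 6 vehicle and 6 β-NMN mice, without a group left unstimulated. Hearts and lungs came from 3 vehicle and 3 β-NMN mice with sepsis after cecal ligation and puncture (CLP), with heart and lung from each animal and no group without CLP. Peritoneal cells were taken on day 3 after TGC, with β-NMN or vehicle given once daily. Hearts and lungs were taken 24 h after CLP, after a single administration by the paper's account. The last dose preceded sacrifice by 24 h in both models. The comparisons ask how β-NMN changed the RNA level of each inflammasome gene in each tissue, and how the organs of septic mice differ in these genes.

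An inflammasome is a cytosolic complex in which a sensor recognizes microbial or danger signals and recruits, directly or through the adaptor ASC, the protease caspase-1. Active caspase-1 matures IL-1β and IL-18 and cleaves gasdermin D, whose fragment forms pores in the plasma membrane and causes pyroptosis, a lytic and inflammatory form of cell death. In the noncanonical branch, the mouse protease encoded by Casp4 binds lipopolysaccharide of Gram-negative bacteria such as E. coli and cleaves gasdermin D itself. Macrophages are the cells in which these pathways are best known, and transcription of Nlrp3 is part of the priming that Toll-like receptor signals give. The RNA levels below say nothing of complex assembly, cleavage or cell death, which were not measured in these libraries. By a separate assay, the paper reports a slight, significant rise in viability with β-NMN in E. coli-stimulated macrophages of the TGC model.

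The sensors were read first as genes. Nlrp3 encodes the sensor of potassium efflux and many membrane disturbances and lies on chr11:59541568-59566956 (plus strand, build GRCm38). Nlrc4, on chr17:74425438-74459142 (minus strand), encodes the partner of the NAIP proteins, which bind bacterial flagellin or the inner rod and needle of type III secretion systems. Naip5, the flagellin receptor, and Naip2, the inner rod receptor, are neighbours on chr13 at 100211739 to 100246323 and 100144063 to 100202092, both on the minus strand. Aim2, a sensor of cytosolic DNA, spans chr1:173350879-173466040 (plus strand) and Mefv, which encodes the sensor pyrin, spans chr16:3707218-3718097 (minus strand). Pycard encodes ASC and lies on chr7:127989708-127993867 (minus strand). Casp1 (chr9:5298517-5307265) and Casp4 (chr9:5308828-5336783) follow one another on the plus strand, and Gsdmd lies on chr15:75862327-75867408 (plus strand).

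Promoter sequences from RefSeq (GRCm38.p6), 250 bases before to 50 after a start site, were matched by symbol to 9 of the 10 genes, in 11 entries. They were searched on both strands for 5 motifs of factors that act in stimulated macrophages. GAGGAAGT, a core that PU.1 and other ETS factors bind, was found in the entries of Aim2 and Pycard and in 3.2% of all 32851 promoters in the table. No entry of these genes held the AP-1 motif TGANTCA (7.81% of all promoters), the GAS motif TTCNNNGAA (8.3%) or the core of the interferon-stimulated response element (3.44%). A loose NF-kappaB motif, of the family of factors best known for priming Nlrp3, was found in 7 of the 11 entries, those of Casp1, Casp4, Mefv, Naip5 and Nlrp3, and in 50.8% of all promoters. A match describes the letters and is not a bound site, and motifs lying outside these windows were not searched. The promoters shown are those of the pair of sensors whose RNA fell most with β-NMN in peritoneal cells and of the pair of genes that held the PU.1/ETS core and rose there. Each is printed 5′ to 3′ on its gene's strand, and capitals mark the PU.1/ETS core, which in Pycard lies on the opposite strand and so reads as its reverse complement.
Nlrp3, chr11:59541319-59541618, plus strand: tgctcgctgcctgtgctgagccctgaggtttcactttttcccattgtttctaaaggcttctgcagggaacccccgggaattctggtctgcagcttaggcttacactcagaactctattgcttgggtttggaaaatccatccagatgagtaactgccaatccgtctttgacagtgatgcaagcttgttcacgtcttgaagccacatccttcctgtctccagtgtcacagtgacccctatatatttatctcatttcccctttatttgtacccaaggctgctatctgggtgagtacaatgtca
Nlrc4, chr17:74459059-74459358, minus strand: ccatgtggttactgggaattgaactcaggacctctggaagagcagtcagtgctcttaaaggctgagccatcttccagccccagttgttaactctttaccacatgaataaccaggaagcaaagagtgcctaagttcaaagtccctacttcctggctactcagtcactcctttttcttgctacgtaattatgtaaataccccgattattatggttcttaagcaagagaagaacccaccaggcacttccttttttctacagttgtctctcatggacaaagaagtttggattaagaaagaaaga
Aim2, chr1:173420354-173420653, plus strand: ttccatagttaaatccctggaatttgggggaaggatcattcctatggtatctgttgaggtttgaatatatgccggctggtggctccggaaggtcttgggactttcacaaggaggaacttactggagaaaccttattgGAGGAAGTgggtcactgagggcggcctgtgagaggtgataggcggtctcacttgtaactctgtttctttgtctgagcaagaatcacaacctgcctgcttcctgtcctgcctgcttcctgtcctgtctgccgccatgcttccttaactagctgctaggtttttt
Pycard, chr7:127993818-127994117, minus strand: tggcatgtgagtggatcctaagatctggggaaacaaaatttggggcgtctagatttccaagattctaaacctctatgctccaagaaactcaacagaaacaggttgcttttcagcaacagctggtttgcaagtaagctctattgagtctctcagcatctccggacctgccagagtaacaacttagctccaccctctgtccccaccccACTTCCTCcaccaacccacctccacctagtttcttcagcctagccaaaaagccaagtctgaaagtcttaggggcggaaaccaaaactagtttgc

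Counted from the start site, the leftmost base of the core lay at position -113 in Aim2 and at -44 in Pycard. The window of Nlrp3 held the loose NF-kappaB motif alone, and that of Nlrc4 held none of the 5 motifs.

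Total counts per library were 31126823 to 112456050 in peritoneal cells, 27319513 to 68523239 in hearts and 8915366 to 28356786 in lungs. Levels are given as CPM, counts scaled to a common library total with TMM factors, and changes as log2 fold changes of β-NMN over vehicle from edgeR's quasi-likelihood test, with p-values adjusted by Benjamini-Hochberg over all genes tested in a tissue. A gene is called when its adjusted p is below 0.05. Each library carries a code of its own within its tissue, and an exact permutation test (two-sided) of mean log2 CPM was added for each gene, which cannot go below 0.00216 in peritoneal cells or below 0.1 in an organ. The 5 deepest peritoneal libraries (vehicle replicates 4 to 6 and β-NMN replicates 1 and 2, 90571560 to 112456050 counts) and the other 7 (31126823 to 53319385 counts) were also fitted apart, as a split by depth chosen after the totals were seen. In both organs, vehicle replicate 2, the same mouse, stood apart from the other libraries. The SD over genes of its log2 difference from the rest was 1.57 in lung against 0.45 to 0.60 in the other lungs, and 0.99 in heart against 0.39 to 0.58 in the other hearts. Its heart held Myl7, an atrial myosin light chain named after its values were seen, at 2111 CPM against 0.14 to 192 CPM in the other 5 hearts. Its lung was the shallowest library. Its macrophage marker sum was 1461 CPM, against 4253 and 4571 CPM in the other vehicle lungs and 5225 to 5767 CPM in β-NMN lungs. Lyz2 made up most of this sum, at 2888 ± 1588 CPM in vehicle and 4885 ± 261 CPM in β-NMN lungs. The pan-leukocyte marker sum was instead highest in this library, at 1196 CPM against 696 to 893 CPM in the other 5 lungs. As a check of the labelled organs, 5 cardiomyocyte markers summed to 29578 to 55331 CPM in hearts and 70.2 to 406 CPM in lungs, and 6 lung epithelium markers to 58969 to 104439 CPM in lungs and 62.6 to 74.6 CPM in hearts.

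In E. coli-stimulated peritoneal cells, the sensors and the adaptor moved in both directions with β-NMN, whereas the proteases and the pore former did not pass the test. Nlrp3, Nlrc4 and Mefv fell, whereas Pycard, Aim2 and Naip5 rose. Naip2, Casp1, Casp4 and Gsdmd were not called. Thus 6 of the 10 genes were called, where 51.6% of the 14985 genes tested were called, 23.7% as higher and 27.9% as lower, so the share called was near that of all genes. Over the 10 genes the median change was 0.05 on the log2 scale, against -0.02 over all genes tested, and its median absolute size was 0.67, against 0.43.

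Nlrp3 carried the largest change of the 10. Its level in vehicle samples ranged from 742 to 1247 CPM with a median of 906 CPM, and in β-NMN samples from 84.5 to 353 CPM with a median of 104 CPM. Every β-NMN sample lay below every vehicle sample, and β-NMN replicate 6, at 353 CPM, lay well above the other 5, which were between 84.5 and 127 CPM. The fitted fall was 6.34-fold (log2 fold change -2.66, SE 0.33, edgeR adjusted p = 1.10e-05), from 912 ± 184 to 144 ± 104 CPM (SD, n = 6). The exact permutation p was 0.00216, the smallest possible. Without β-NMN replicate 6 the log2 fold change was -3.13. It was -3.16 within the 5 deeper libraries and -2.43 within the 7 others.

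Nlrc4, which works downstream of the NAIP receptors, fell 3.33-fold (log2 fold change -1.74, SE 0.19, edgeR adjusted p = 3.03e-06). It was a much less abundant RNA, at 12.1 to 23.8 CPM (median 16.5) in vehicle samples and 3.93 to 6.15 CPM (median 5.39) in β-NMN samples. These groups did not overlap either.

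Mefv went from a median of 260 CPM (228 to 386) to a median of 156 CPM (122 to 230). The highest β-NMN sample, at 230 CPM, passed the lowest vehicle sample, at 228 CPM, and the groups otherwise stood apart. The fall was 1.79-fold (log2 fold change -0.84, SE 0.16, edgeR adjusted p = 0.000504).

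Of the NAIP genes, Naip5 was called and Naip2 was not. Naip5 rose 1.51-fold (log2 fold change 0.60, SE 0.16, edgeR adjusted p = 0.00705), from 19.2 to 38.6 CPM in vehicle samples (median 29.0) to 34.1 to 50.9 CPM in β-NMN samples (median 41.3), with overlapping groups. Its log2 fold change was 0.49 within the 7 shallower libraries, where the edgeR adjusted p was 0.132, and 0.86 within the 5 deeper ones. Of the 150-base windows of its transcripts, 8.25% also occur in Naip1, Naip3 or Naip6 transcripts, so part of its count may depend on how reads shared among these copies were assigned. Naip2, which shares 0.537% of its windows, lay at 68.0 to 77.5 CPM in vehicle samples and 62.3 to 88.2 CPM in β-NMN samples, with a log2 fold change of -0.04 (SE 0.09, edgeR adjusted p = 0.729).

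Aim2, the DNA sensor whose promoter is printed above with a PU.1/ETS core, rose 1.67-fold (log2 fold change 0.74, SE 0.12, edgeR adjusted p = 0.000128). Vehicle samples ranged from 47.2 to 78.2 CPM (median 70.3) and β-NMN samples from 89.8 to 121 CPM (median 114), with no overlap. Pycard, the adaptor gene with the same motif, rose 2.40-fold (log2 fold change 1.26, SE 0.17, edgeR adjusted p = 3.22e-05). Its levels were low, from 4.41 to 10.5 CPM (median 8.43) in vehicle samples and from 15.0 to 22.2 CPM (median 20.0) in β-NMN samples, again with no overlap. Exons of Pycard share 485 bases with Gm45205, a gene on the opposite strand. The strand setting of the counting is not known here, and Gm45205 itself had 2 to 13 counts in each peritoneal library.

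Thus 2 of the 10 genes were lower and 2 higher with no overlap between groups, where 26.6% of all tested genes did not overlap, 14% lower and 12.6% higher.

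For the genes of the executing enzymes and of the pore former the groups overlapped and no change was called. Casp1, the protease of canonical inflammasomes, lay between 150 and 239 CPM (median 186) in vehicle samples and between 187 and 231 CPM (median 204) in β-NMN samples (log2 fold change 0.13, SE 0.10, edgeR adjusted p = 0.298). Casp4, the lipopolysaccharide receptor protease, lay between 425 and 588 CPM (median 463) and between 410 and 589 CPM (median 419), respectively (log2 fold change -0.07, SE 0.11, edgeR adjusted p = 0.600). Gsdmd, the substrate that forms the pore, lay between 136 and 214 CPM (median 177) and between 182 and 216 CPM (median 196; log2 fold change 0.18, SE 0.10, edgeR adjusted p = 0.160). Without vehicle replicate 1 the calls of Casp1 (log2 fold change 0.24, edgeR adjusted p = 0.0472) and Gsdmd (0.28, edgeR adjusted p = 0.0305) passed the threshold as higher.

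**Figure D1:**
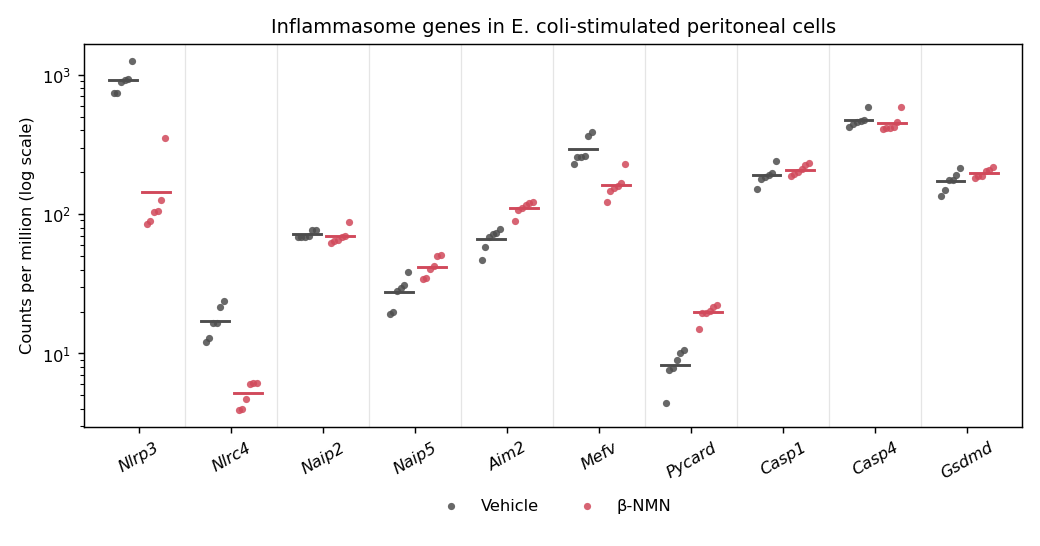
CPM (log axis) of the 10 genes in each peritoneal library, with 6 vehicle points (grey) and 6 β-NMN points (red) per gene and a bar at each group's mean. Nlrp3 and Nlrc4 sit lower and Aim2 and Pycard higher in every β-NMN sample, and β-NMN replicate 6 is the red Nlrp3 point at 353 CPM.

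Marker genes of the cell types in the peritoneal samples moved as well. In peritoneal samples the summed level of the 8 macrophage markers was 5721 to 8908 CPM in vehicle and 10916 to 12508 CPM in β-NMN samples, with 3 of the 8 called higher (Cd68, Mertk and Lyz2) and none lower. The summed level of the 10 neutrophil markers was 495 to 1007 CPM in vehicle and 335 to 468 CPM in β-NMN samples. Of the 8 tested, 6 were called lower and 1 higher, and S100a8 went from 87.4 to 2.78 CPM on average. The 5 monocyte markers summed to 1901 to 3748 CPM and to 1029 to 1357 CPM, with 3 called lower (Fn1, Ccr2 and Ly6c2). Fn1 made up most of this sum, at 2409 ± 643 CPM in vehicle and 881 ± 89.6 CPM in β-NMN samples. Vcan and Plac8 were not called. Rarer cell types moved too. The 4 NK cell markers, all called lower, summed to 44.1 to 230 CPM in vehicle and 14.6 to 34.1 CPM in β-NMN samples. The 4 dendritic cell markers, 3 lower and 1 higher, summed to 32.5 to 52.4 CPM and 13.8 to 18.1 CPM. The 6 mesothelial and fibroblast markers, 5 of them lower, summed to 46.3 to 693 CPM and 8.58 to 46.1 CPM. Of the 4 T cell markers 3 were lower and 1 higher, whereas their sum was 23.8 to 47.4 CPM in vehicle and 39.3 to 57.2 CPM in β-NMN samples. The 6 markers of resident peritoneal macrophages, 4 higher and 2 lower, summed to 21.0 to 31.9 CPM and 28.2 to 64.0 CPM. Of the other lists, B cell markers had 2 of 4 lower, mast cell markers 1 of 4 lower (Kit), endothelial markers 2 of 3 tested lower and eosinophil markers 1 of 2 tested higher (Ccr3). Their sums overlapped between the groups, at 30.6 to 149 CPM in vehicle and 20.6 to 81.6 CPM in β-NMN samples for B cells, 87.2 to 243 and 62.8 to 107 CPM for mast cells, 63.1 to 143 and 64.8 to 116 CPM for endothelium, and 8.23 to 32.1 and 15.2 to 60.7 CPM for eosinophils. No marker of these 12 types was at 0 in all peritoneal libraries. In bulk samples fewer cells of a type and less RNA per cell cannot be told apart, and the part of the cell makeup in the changes of the inflammasome genes was not tested.

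Genes around the inflammasome were taken from lists of the pathway, whose counts stand beside the 51.6% of all tested genes that were called (23.7% higher and 27.9% lower). Among the 6 substrate and antagonist genes of the IL-1 family, 4 were called lower and none higher (median log2 fold change -0.80). Il1b, whose product caspase-1 matures, went from 2478 ± 920 to 275 ± 64.3 CPM (log2 fold change -3.17, SE 0.26, edgeR adjusted p = 2.55e-07). Il1a, which encodes IL-1α, went from 1891 ± 507 to 901 ± 133 CPM (-1.07), and Il1rn, which encodes the receptor antagonist, from 6898 ± 970 to 4791 ± 661 CPM (-0.53). Among the 11 other sensors tested of 12, 3 were called higher and 1 lower. Nod2, a sensor of muramyl dipeptide, fell (log2 fold change -1.11), while Ifi203, of the same DNA-sensing family as Aim2, rose (0.71). Naip6, another NAIP copy, also rose (0.96), from 23.0 ± 7.00 to 44.6 ± 5.43 CPM. Of the 23 priming and activation regulators, 4 rose, 2 fell and 17 were not called, a smaller share called than over all genes. Nek7, the kinase that binds NLRP3, rose with a narrow spread from 92.0 ± 3.65 to 161 ± 6.74 CPM (log2 fold change 0.81, SE 0.07, edgeR adjusted p = 2.62e-07). Cd14, the lipopolysaccharide co-receptor, fell (-2.92), as did Ddx3x, a helicase reported to bind NLRP3 (-0.68).

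Only 2 of the 9 genes of the remaining gasdermins and of membrane rupture were expressed enough to be tested. Gsdme, the gasdermin cleaved by caspase-3, fell from 5.38 ± 1.35 to 2.703 ± 0.36 CPM (log2 fold change -0.99). Ninj1, which drives membrane rupture after pore formation, was at 432 ± 43.6 and 421 ± 35.7 CPM (log2 fold change -0.04, edgeR adjusted p = 0.751). Of the 12 cell death caspases and necroptosis genes, 2 rose, 2 fell and 8 were not called, where 51.6% of all tested genes were called. Casp2 rose by 1.39 and Casp12 by 0.85 on the log2 scale, and Casp6 fell by 0.72. Over the 5 lists the median log2 fold changes were 0.14 for other sensors, -0.51 for gasdermins and rupture, -0.80 for substrates, 0.10 for regulators and 0.11 for death caspases, beside -0.02 over all genes tested.

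**Figure D2:**
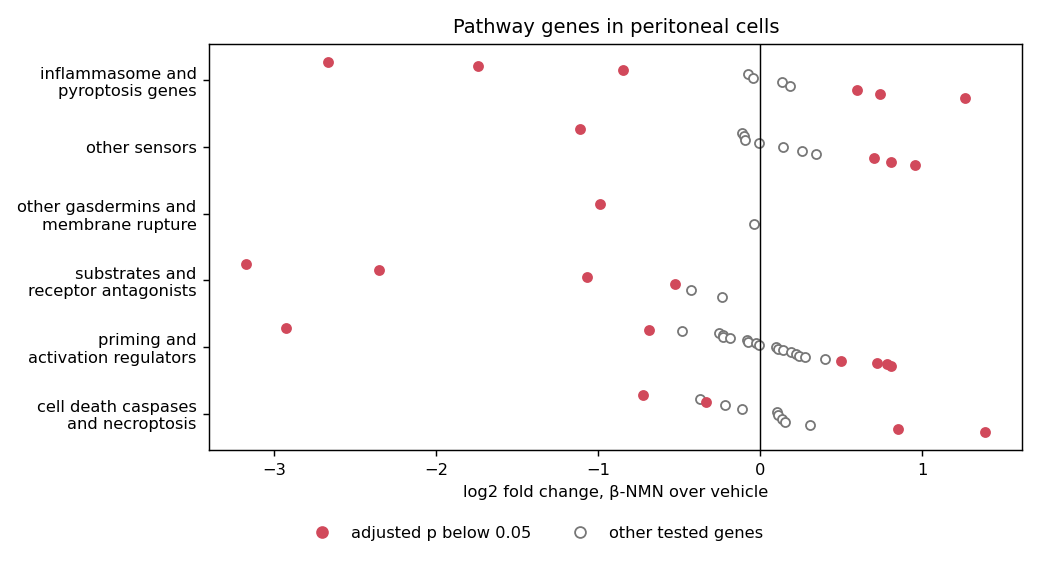
Log2 fold change of β-NMN over vehicle in peritoneal cells for every tested gene of the inflammasome group and of the 5 pathway lists, 1 point per gene. Red points are genes with an adjusted p below 0.05, and the leftmost point of the substrates is Il1b at -3.17.

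Over the 12 peritoneal samples, the log2 CPM of some other genes followed that of an inflammasome gene closely. This is a description over samples that share the split by treatment, and each sample is 1 library. For Nlrp3 the highest Pearson r were those of Cwc25 (0.995), Ing3 (0.993) and Trib1 (0.992), and for Nlrc4 those of Mir22hg (0.982), Rcl1 (0.982) and Kin (0.981). For Casp1 they were Majin (0.936), Ifi204 (0.935) and Cept1 (0.933), and for Gsdmd Samd9l (0.968), Gm35558 (0.959) and Aste1 (0.959).

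In hearts of CLP mice, the inflammasome genes were scarce and none was called. Nlrp3, Nlrc4, Naip2, Pycard and Casp4 were lower in every β-NMN heart than in every vehicle heart, whereas Aim2, Naip5, Mefv, Casp1 and Gsdmd overlapped. None of the 16245 genes tested was called by edgeR (0% of all genes, 1837 at an unadjusted p below 0.05), and DESeq2 called 262 genes and limma-voom 3, none of them an inflammasome gene. The paper, which also used edgeR quasi-likelihood tests, reports differentially expressed genes in hearts and lungs at an adjusted p below 0.05. Why this differs from the fit here was not tested. Groups did not overlap for 11.5% of all tested genes as lower and for 23.1% in either direction. The median log2 fold change of the 9 genes tested was -0.46, against -0.01 over all genes tested.

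Nlrp3 in hearts was at 2.24, 3.29 and 2.79 CPM in vehicle replicates 1 to 3 and at 1.71, 1.05 and 1.52 CPM in β-NMN replicates 1 to 3. Its log2 fold change was -0.96 (SE 0.28, edgeR adjusted p = 0.435), and -0.83 without vehicle replicate 2. Casp4 was at 5.70, 17.04 and 6.34 CPM in vehicle hearts and at 4.39, 4.73 and 3.61 CPM in β-NMN hearts. Vehicle replicate 2 alone lay above 10 CPM, and the log2 fold change of -1.19 (SE 0.44, edgeR adjusted p = 0.435) became -0.51 without it. Naip2 was at 3.04, 3.07 and 3.35 CPM against 1.79, 2.35 and 2.68 CPM (log2 fold change -0.46, SE 0.23, edgeR adjusted p = 0.447). Nlrc4 was at 0.77, 0.96 and 0.84 CPM against 0.52, 0.65 and 0.64 CPM (-0.50, SE 0.27, edgeR adjusted p = 0.459). These Nlrc4 values rest on 14 to 51 counts per heart. Pycard was at 3.58, 3.84 and 3.78 CPM against 3.50, 3.27 and 2.50 CPM (-0.28, SE 0.21, edgeR adjusted p = 0.540), and its log2 fold change was -0.14 without β-NMN replicate 3. For each of these 5 genes the exact permutation p was 0.1, the smallest that 3 against 3 mice allow.

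Gsdmd had the smallest SE of the inflammasome genes tested in hearts (log2 fold change 0.10, SE 0.13). It was at 11.3, 11.7 and 11.1 CPM in vehicle and 12.9, 11.01 and 12.6 CPM in β-NMN mice. Casp1 was at 2.69, 2.61 and 3.78 CPM against 3.13, 3.36 and 2.39 CPM, with a log2 fold change of -0.03 (SE 0.25). Naip5 (-0.02, SE 0.26) and Aim2 (-0.48, SE 0.33, and -0.24 without vehicle replicate 2) overlapped as well. Mefv had too few reads to be tested, with 7, 23 and 12 counts in vehicle and 5, 4 and 6 counts in β-NMN hearts. Marker sums of other cell types are set beside these values. The 10 neutrophil markers summed to 27.0 to 44.4 CPM in vehicle and 16.1 to 20.0 CPM in β-NMN hearts. The 5 monocyte markers summed to 79.9 to 255 CPM and 61.7 to 99.6 CPM. Vehicle replicate 2 held the 255 CPM, and the other vehicle hearts at most 125 CPM. The 8 macrophage markers summed to 296 to 494 CPM and 345 to 596 CPM, with overlapping groups. The 6 pan-leukocyte markers summed to 128 to 142 CPM and 98.5 to 167 CPM. None of these markers was at 0 in all hearts. Their part in the levels of Nlrp3 and Casp4 was not tested.

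In lungs of CLP mice no inflammasome gene was called and all 10 overlapped between groups, with log2 fold changes between -0.37 (Pycard) and 0.27 (Aim2). None of the 17008 genes tested was called by edgeR (0% of all genes in either direction, 301 at an unadjusted p below 0.05), DESeq2 called 9 and limma-voom 7, none an inflammasome gene. Groups did not overlap for 8.21% of all tested genes, 4.47% as higher and 3.75% as lower. The standard errors of the 10 genes ran from 0.25 for Casp4 to 0.66 for Nlrp3 in lungs, against 0.09 to 0.33 in peritoneal cells.

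Nlrp3 was at 4.38, 0.72 and 6.34 CPM in vehicle lungs and at 3.84, 4.25 and 4.58 CPM in β-NMN lungs. The low value, 5 counts, belonged to vehicle replicate 2, and the log2 fold change of 0.12 became -0.34 without it. Gsdmd followed the same library, at 51.9, 21.5 and 59.1 CPM in vehicle and 53.1, 47.2 and 56.8 CPM in β-NMN lungs, with a log2 fold change of 0.24 that became -0.08 without it. Nlrc4 and Naip5 were instead highest in that library, at 4.77 CPM against 2.66 and 3.11 CPM and at 11.8 CPM against 5.97 and 6.09 CPM in the other vehicle lungs. Their β-NMN lungs held 2.74, 3.94 and 3.12 CPM of Nlrc4 and 5.97, 7.11 and 6.97 CPM of Naip5. Without the library the log2 fold changes of Nlrc4 and Naip5 turned from -0.09 to 0.18 and from -0.24 to 0.15, and that of Casp1 from 0.02 to -0.15. Aim2, at 4.25, 2.74 and 3.65 CPM against 3.90, 4.72 and 4.29 CPM, and Casp4, at 21.5, 16.2 and 18.7 CPM against 13.4, 13.5 and 19.2 CPM, kept their direction. Their log2 fold changes were 0.12 and -0.38 without that library, in place of 0.27 and -0.29. Pycard was at 11.9, 20.4 and 12.1 CPM against 15.8, 7.42 and 10.8 CPM. It too was highest in vehicle replicate 2, and its log2 fold change of -0.37 was -0.08 without it and -0.68 to -0.13 without each other library.

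Among the pathway lists no gene was called in hearts or lungs. The smallest unadjusted p in hearts was that of Il1rn, at 6.72 ± 1.48 and 2.00 ± 0.58 CPM (n = 3, log2 fold change -1.75, edgeR adjusted p = 0.435). In lungs it was that of Il1b, at 13.7 ± 1.15 and 7.12 ± 2.13 CPM (n = 3, -0.94, edgeR adjusted p = 0.969).

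**Figure D3:**
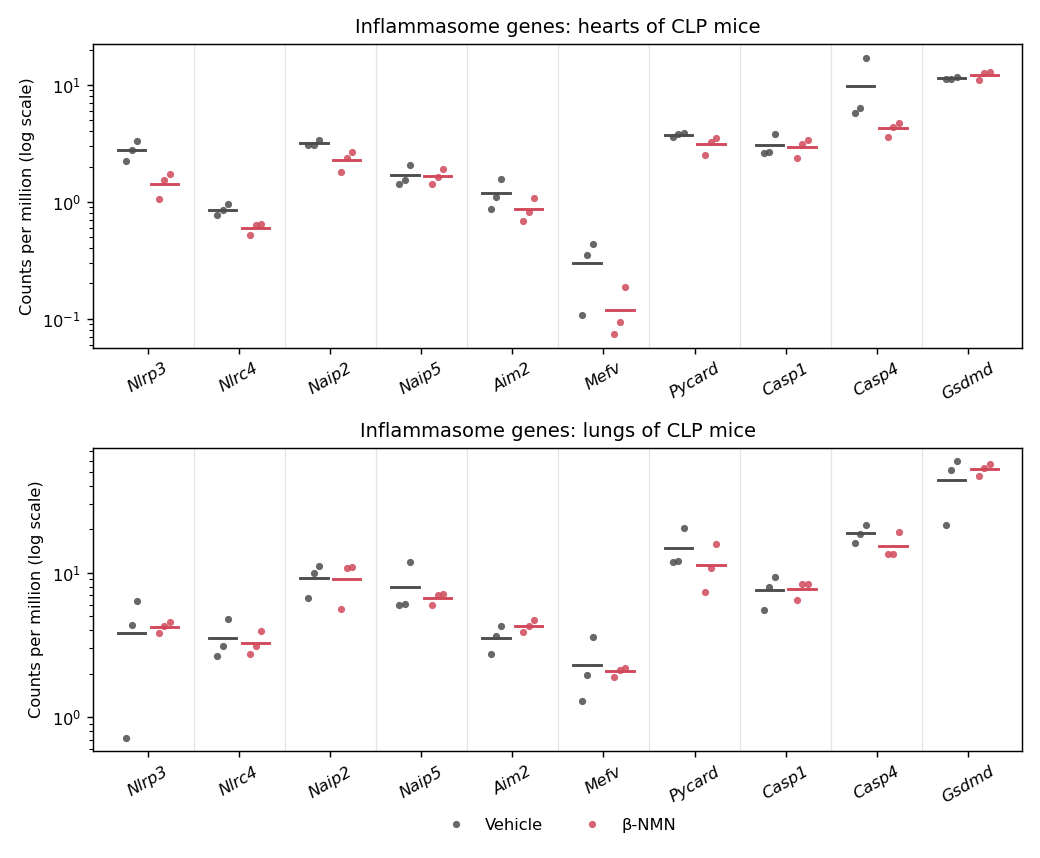
CPM (log axes) of the 10 genes in each heart (top) and lung (bottom), 3 vehicle points (grey) and 3 β-NMN points (red) per gene, with a bar at each group's mean. The grey Casp4 point at 17.04 CPM in heart and the grey Nlrp3 point at 0.72 CPM in lung belong to vehicle replicate 2.

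The change with β-NMN was then compared between hearts and lungs of the same mice with an interaction term and the mouse as a block. No inflammasome gene was called, with 0% of 19279 genes called (512 at an unadjusted p below 0.05). DESeq2 called 12 genes, none an inflammasome gene. The difference of log2 fold changes, lung minus heart, was 1.36 for Nlrp3 (SE 0.90, edgeR adjusted p = 0.957), 1.19 for Mefv (SE 0.89), 0.74 for Aim2 (SE 0.58) and 0.71 for Casp4 (SE 0.61). For the other 6 genes it lay between -0.14 and 0.46. Without the mouse of vehicle replicate 2 these differences were 0.51 for Nlrp3, 0.51 for Mefv, 0.35 for Aim2 and 0.09 for Casp4. Peritoneal cells came from another model with another dosing schedule and were counted in another table. Their changes therefore stand beside those of the organs without a test.

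**Figure D4:**
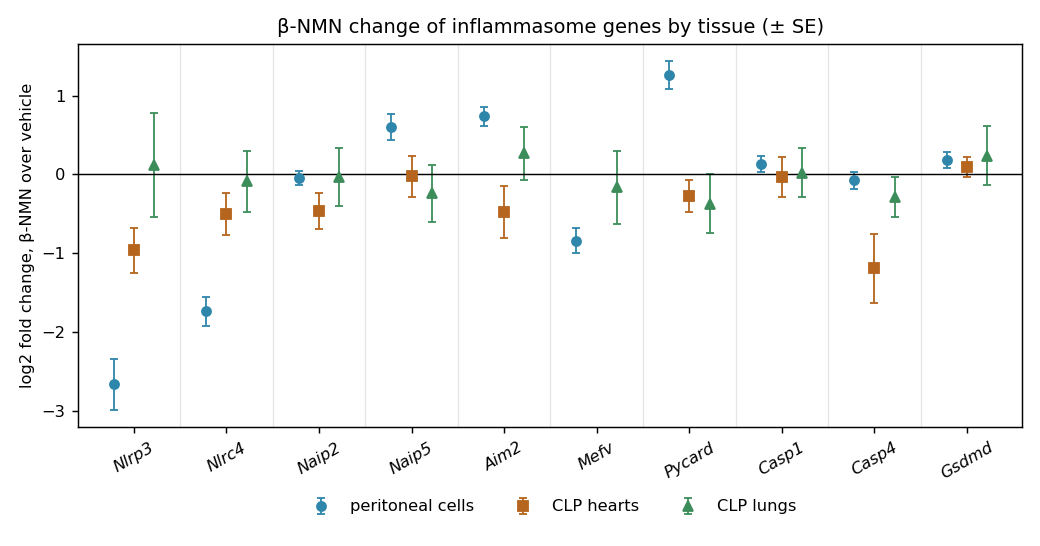
Log2 fold change of β-NMN over vehicle with its standard error for the 10 genes in peritoneal cells (blue circles), CLP hearts (brown squares) and CLP lungs (green triangles). The changes of Nlrp3 were -2.66, -0.96 and 0.12, and Mefv has no heart value because its counts were too low.

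Between organs of the same mice, 9 of the 10 genes were called higher in lung than in heart, where 63.1% of 19279 genes were called 34.4% as higher in lung and 28.8% as lower. Mefv differed most, 7.58-fold (log2 ratio 2.92, SE 0.48, edgeR adjusted p = 0.000821), followed by Nlrc4 (2.85-fold), Naip5 (2.65-fold), Aim2 (2.46-fold), Gsdmd (2.44-fold), Pycard (2.27-fold) and Naip2 (2.07-fold). Casp4 (1.76-fold, edgeR adjusted p = 0.0481) and Casp1 (1.58-fold, edgeR adjusted p = 0.0163) differed least among those called. The call of Casp4 was lost without a low-count filter and when any 1 mouse other than that of vehicle replicate 2 was left out, and that of Casp1 without vehicle replicate 1 or β-NMN replicate 3. Nlrp3 was the exception, at a log2 ratio of 0.28 (SE 0.49, edgeR adjusted p = 0.639), and was called (0.61) without the mouse of vehicle replicate 2, whose lung held 5 Nlrp3 counts. Pan-leukocyte markers summed to 98.5 to 167 CPM in hearts and to 696 to 1196 CPM in lungs. Macrophage markers summed to 296 to 596 CPM in hearts and 1461 to 5767 CPM in lungs. Neutrophil markers summed to 16.1 to 44.4 CPM and 1659 to 2999 CPM. None of these markers was at 0 in all libraries, and their part in these differences was not tested.

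For the order of levels among the genes, CPM was divided by the length of the annotated exons in kb. In vehicle peritoneal cells Nlrp3 stood first at 225 ± 45.4 CPM per kb (SD, n = 6), above the range of the next gene. Casp4 (128 ± 15.6), Casp1 (127 ± 19.2), Mefv (90.0 ± 20.3) and Gsdmd (73.0 ± 11.9) followed with ranges that overlapped from each to the next. Aim2 (19.0 ± 3.30) and Naip2 (14.8 ± 0.92) came below a gap and overlapped with each other. Naip5 (5.34 ± 1.41), Nlrc4 (3.58 ± 0.96) and Pycard (2.17 ± 0.58) came last, again overlapping from each to the next. For Pycard the exons and the longest of its 2 coding transcripts were both 3.8 kb. A shorter transcript would raise its level per kb, in the organs too. With β-NMN, Nlrp3 stood at rank 5, at 35.5 ± 25.6 CPM per kb, behind Casp1 (139 ± 11.8), Casp4 (122 ± 18.7), Gsdmd (82.8 ± 5.61) and Mefv (50.2 ± 11.1), and overlapped with Gsdmd, Mefv and Aim2. The overlap of Nlrp3 with Gsdmd and Mefv came from β-NMN replicate 6 alone, at 87.1 CPM per kb. Its β-NMN median was 25.6 CPM per kb, below that of Aim2 (32.4). Over longest coding transcripts Nlrp3 stood at rank 6, behind Aim2.

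In the organs Gsdmd stood first instead, at 4.79 ± 0.13 CPM per kb in vehicle hearts and 18.6 ± 8.40 CPM per kb in vehicle lungs (n = 3). Nlrp3 was at 0.68 ± 0.13 and 0.94 ± 0.70 CPM per kb there, and Mefv was at 0.09 ± 0.05 and 0.70 ± 0.37. Mefv had the lowest mean in hearts, and in lungs its range overlapped with that of Nlrc4 (0.73 ± 0.23). Ranks 2 to 4 went to Casp4, Casp1 and Pycard in vehicle hearts and to Casp1, Casp4 and Pycard in vehicle lungs. The ranges of Casp4 and Casp1 overlapped in both organs. The place of Casp4 depends on the length used: over its longest coding transcript (1.435 kb, against 3.71 kb of all exons) it stood first in vehicle peritoneal cells at 331 CPM per kb. In vehicle hearts its mean on that scale, 6.76, passed that of Gsdmd, 6.35, through vehicle replicate 2 alone.

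**Figure D5:**
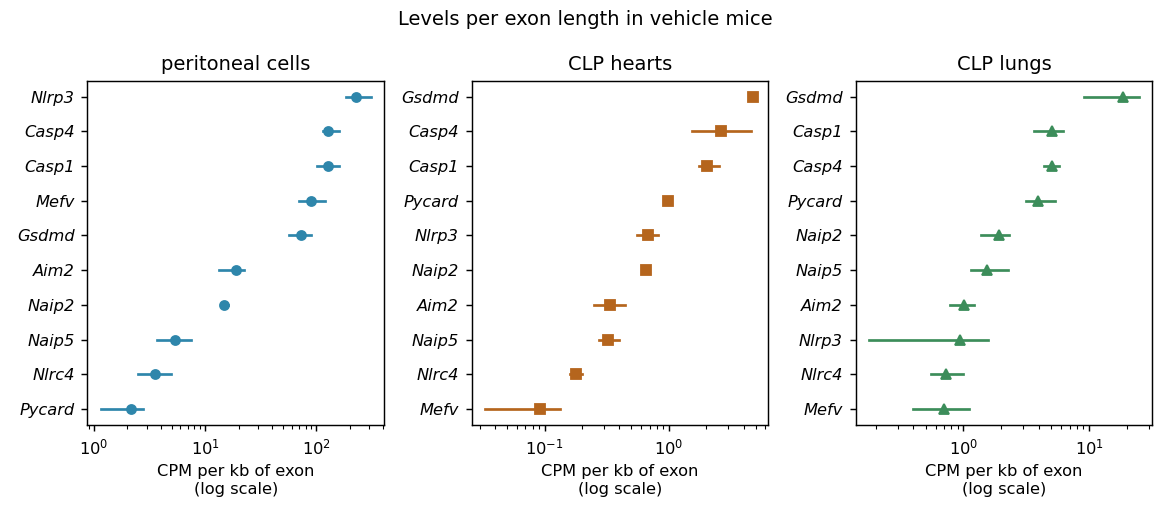
CPM per kb of exon (log axes) of the 10 genes in vehicle samples of each tissue, ordered by the mean (symbol), with a line from the lowest to the highest sample (n = 6, 3 and 3). Nlrp3 is first in peritoneal cells at 225 CPM per kb, and Gsdmd is first in hearts and lungs.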

How the data were processed

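RNA was sequenced from 12 peritoneal samples, 6 hearts and 6 lungs. The authors deposited raw counts of reads per gene symbol, made with STAR 2.7.3a on mm10 and featureCounts 2.0.0 per the submitters' notes. The annotation and strand setting are not given in the sources used here. The fit was made per tissue with edgeR 4.0.16 in R 4.3.3 (filterByExpr, TMM, estimateDisp, the older quasi-likelihood F-test). Organs were compared over 12 CLP libraries with the mouse as a block. Log2 CPM used a prior count of 2. Scripts were tested on simulated data. All 10 genes were named, with the 3 smallest p of each pathway list in peritoneal cells, the smallest in organs, and the 3 genes most like each of Nlrp3, Casp1, Nlrc4 and Gsdmd. Members and lists were chosen with earlier results of these data known. Alternatives were DESeq2 1.42.0 and its size factors, library size alone, no low-count filter, limma-voom (limma 3.58.1), the newer quasi-likelihood fit, a replicate block and leaving out each library. Gene models were GENCODE M21. Both B17 and B18 β-NMN hearts carry the number 3 in their labels. B17 was counted as replicate 2, the number of its lung. Source labels of the organs name thioglycollate, whereas titles, tissues and methods give CLP. Nothing states how cages or preparation days were shared, so p-values measure the spread between these samples.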

Additional observations from a re-analysis of the deposited data

Results flagged for a closer look

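In the 20 peritoneal groups of 6 samples examined (10 genes, both treatments), 5 had a sample far from the other 5 by Dixon's criterion, which chance flags in about 1 group of 20. β-NMN replicate 6 was this sample for 3 genes, with 353 CPM of Nlrp3 (84.5 to 127 CPM in the other β-NMN samples), 88.2 CPM of Naip2 (62.3 to 69.1 CPM) and 589 CPM of Casp4 (410 to 457 CPM). Vehicle replicate 4 held 1247 CPM of Nlrp3, against 742 to 926 CPM in the other vehicle samples. Vehicle replicate 1, the shallowest peritoneal library at 31126823 counts, held 588 CPM of Casp4, against 425 to 470 CPM. With β-NMN replicate 6 left out Nlrp3 was still called as lower (log2 fold change -3.13), and so it was with vehicle replicate 4 left out (-2.53). Casp4 had a log2 fold change of 0.02 when vehicle replicate 1 was left out and of -0.13 when β-NMN replicate 6 was, and was called in neither fit. Whether these samples differ in cell makeup or handling was not tested.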

How the results depend on the processing

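In peritoneal cells the count of 6 called genes was the same with DESeq2, its size factors, library size alone, no low-count filter, limma-voom, the newer quasi-likelihood fit and within the 5 deeper libraries. It was 5 within the 7 shallower ones, where 4244 of all genes were called in place of 7733, with fewer samples. Leaving out each library gave 6 to 8. The exact permutation test put 6 genes below 0.05, and 7 with library size alone. Genes that were not called could change sign: leaving out single libraries gave log2 fold changes of -0.089 to 0.028 for Naip2 and of -0.13 to 0.024 for Casp4, and the 5 deeper libraries gave 0.070 and 0.039.

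In the organs 0 of the inflammasome genes were called under every alternative run. Over all genes in hearts, 3 were called with no low-count filter, 262 with DESeq2, 3 with limma-voom and 0 to 5 on leaving out each library, with 5 without vehicle replicate 2. In lungs DESeq2 called 9 and limma-voom 7. For the difference between organs DESeq2 called 12, and leaving out each mouse gave 0 to 2. Log2 fold changes near 0 reversed. In hearts Gsdmd was at -0.040 with library size alone, and Naip5 and Casp1 at 0.037 and 0.017 with limma-voom. In lungs Nlrc4 and Naip2 were at 0.096 and 0.087 with library size alone, Casp1 at -0.0096 with DESeq2, and Nlrp3, Nlrc4, Naip5 and Casp1 at -0.12, 0.20, 0.19 and -0.031 with limma-voom. Leaving out each library gave -0.12 to 0.16 for Naip5 and -0.14 to 0.16 for Casp1 in hearts. In lungs it gave -0.34 to 0.67 for Nlrp3, -0.24 to 0.18 for Nlrc4, -0.21 to 0.22 for Naip2, -0.39 to 0.15 for Naip5, -0.41 to 0.34 for Mefv, -0.15 to 0.22 for Casp1 and -0.084 to 0.51 for Gsdmd. The difference of log2 fold changes, lung minus heart, ran from -0.42 to 0.19 for Naip5, -0.27 to 0.23 for Pycard, -0.13 to 0.27 for Casp1 and -0.22 to 0.60 for Gsdmd on leaving out each mouse. The cause of these reversals was not tested.

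Replicate numbers are shared between treatments, but same-numbered samples correlated at only -0.17 to 0.13 in peritoneal cells, 0.073 to 0.24 in hearts and -0.52 to 0.30 in lungs, so the numbers were not taken as pairs. With the replicate block 6 inflammasome genes and 7133 of all genes were called in peritoneal cells, and 0 in hearts and lungs. Without the mouse as a block, 9 genes differed between organs, as with it. Counts limit the scarcest genes, such as Nlrc4 (14 to 51) and Mefv (4 to 23) in hearts, and Nlrp3 (5) and Mefv (9) in the shallowest lung.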
